A study of Mus musculus with 36 samples.

Results

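The genes described here are 49 genes whose new transcription in mouse fibroblasts was higher under interferon alpha (IFN alpha) than under interferon gamma (IFN gamma) late in the treatment. They were chosen on the newly transcribed RNA labelled from 150 to 180 min. The mean log2 value of a gene had to be at least 1 higher with IFN alpha than in mock cells, this difference had to exceed that of IFN gamma by at least 1, and the IFN alpha mean had to be at least 5. Of 18193 genes with a probe set of a single symbol, 73 met these thresholds, and 24 of them were set aside because they belong to well-known antiviral families such as Ifit, Mx and Oas. The remaining 49 genes include sensors of foreign RNA, RNA-binding and RNA-editing proteins, ubiquitin ligases, nuclear body proteins and galectins, together with membrane, mitochondrial and matrix genes.

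The cells were NIH-3T3, an established mouse embryo fibroblast line, which received fresh medium with mock, with 100 U/ml IFN alpha or with 100 U/ml IFN gamma. RNA made during a window was labelled with the uridine analogue 4-thiouridine (4sU), which cells take up and use for new transcripts, and hybridised to Affymetrix arrays. The windows ran from 0 to 30, 30 to 60 and 150 to 180 min at 500 µM 4sU and from 0 to 60 min at 200 µM, counted from the medium change. Each of the 12 groups of treatment and window had 3 arrays, 36 in all. Nothing in the labels says that the numbered arrays of a group come from separate cultures; p-values here therefore reflect the spread among arrays, which may be technical. All groups share the cell line, the medium change and the 4sU, so the mock cells are no untouched control.

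The 2 kinds of interferon use different receptors. Type I interferons such as IFN alpha signal through Jak1 and Tyk2 to a complex with Stat2 and Irf9, which binds the interferon-stimulated response element (ISRE). IFN gamma, the type II interferon, signals through Jak1 and Jak2, and many of its early target genes carry the gamma-activated site (GAS). Genes with an ISRE can also respond to IFN gamma later, for example through Irf1, a transcription factor that IFN gamma induces.

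Array values of replicate arrays correlated at r between 0.910 and 0.995 over the tested genes, and the lowest value came from mock arrays of the 0 to 60 min window. All 8 fibroblast marker genes were well measured, with a median log2 level of 11.9. Of 8 macrophage markers 1 passed the filter on low values, with a highest mean of 6.17, and of the dendritic cell, epithelial and endothelial markers, 4 each, none did. Values are log2 units, so a difference of 1 is a 2-fold change, and levels of different probe sets are not compared. A gene was called at an adjusted p under 0.05 in a limma fit over 9549 genes. All 49 genes passed the filter, 45 of them on the 27 arrays that the thresholds did not use. Cutc, Ddx60, Sp100 and Sp110 passed only through the 150 to 180 min arrays.

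In the window that chose the genes, which is given as a description without a test, the difference of IFN alpha from mock ranged from 1.01 to 6.83 with a median of 2.34. The median over all genes was -0.10. Slfn8, of the Schlafen family, stood highest at 6.83, followed by the torsin ATPase gene Tor3a at 5.63, the PHD finger gene Phf11d at 5.21, the ubiquitin ligase gene Rnf213 at 5.18 and Herc6, the mouse ligase for the ubiquitin-like protein Isg15, at 5.03. IFN gamma was not without effect on the same genes by then. Its difference from mock was at least 1 in 17 genes, between 0 and 1 in 28, and below 0 in 4, with a median of 0.73. For Slfn8 it was 4.13, for Samd9l 3.34, for Rnf213 3.32 and for Herc6 3.07. In contrast, Cutc, a copper homeostasis gene, stood at 0.04 with IFN gamma against 1.65 with IFN alpha, Tspo, a mitochondrial outer membrane protein, at 0.08 against 1.55, and the scramblase gene Plscr2 at -0.12 against 2.61. The word selective therefore describes a gap of at least 1 between the interferons, not a lack of response to IFN gamma.

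The thresholds cut through a continuum. Just inside the limit for IFN alpha against mock stood Brinp1 at 1.01, Gm11772 at 1.25 and Shisa5 at 1.27, and just outside stood Prkce at 0.996, Scarb2 at 0.963 and Nmnat2 at 0.929. For IFN alpha against IFN gamma, Apobec1 at 1.00, Lgals8 at 1.01 and Zc3hav1 at 1.04 were just inside, and Il15 at 0.994, Ly6e at 0.989 and Mitd1 at 0.982 just outside. For the IFN alpha level, Cutc at 5.13, Sp110 at 5.36 and Gm11772 at 5.50 were just inside, and Sh2d6 at 4.92, Apod at 4.83 and Ifi209 at 4.52 just outside.

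**Figure D1:**
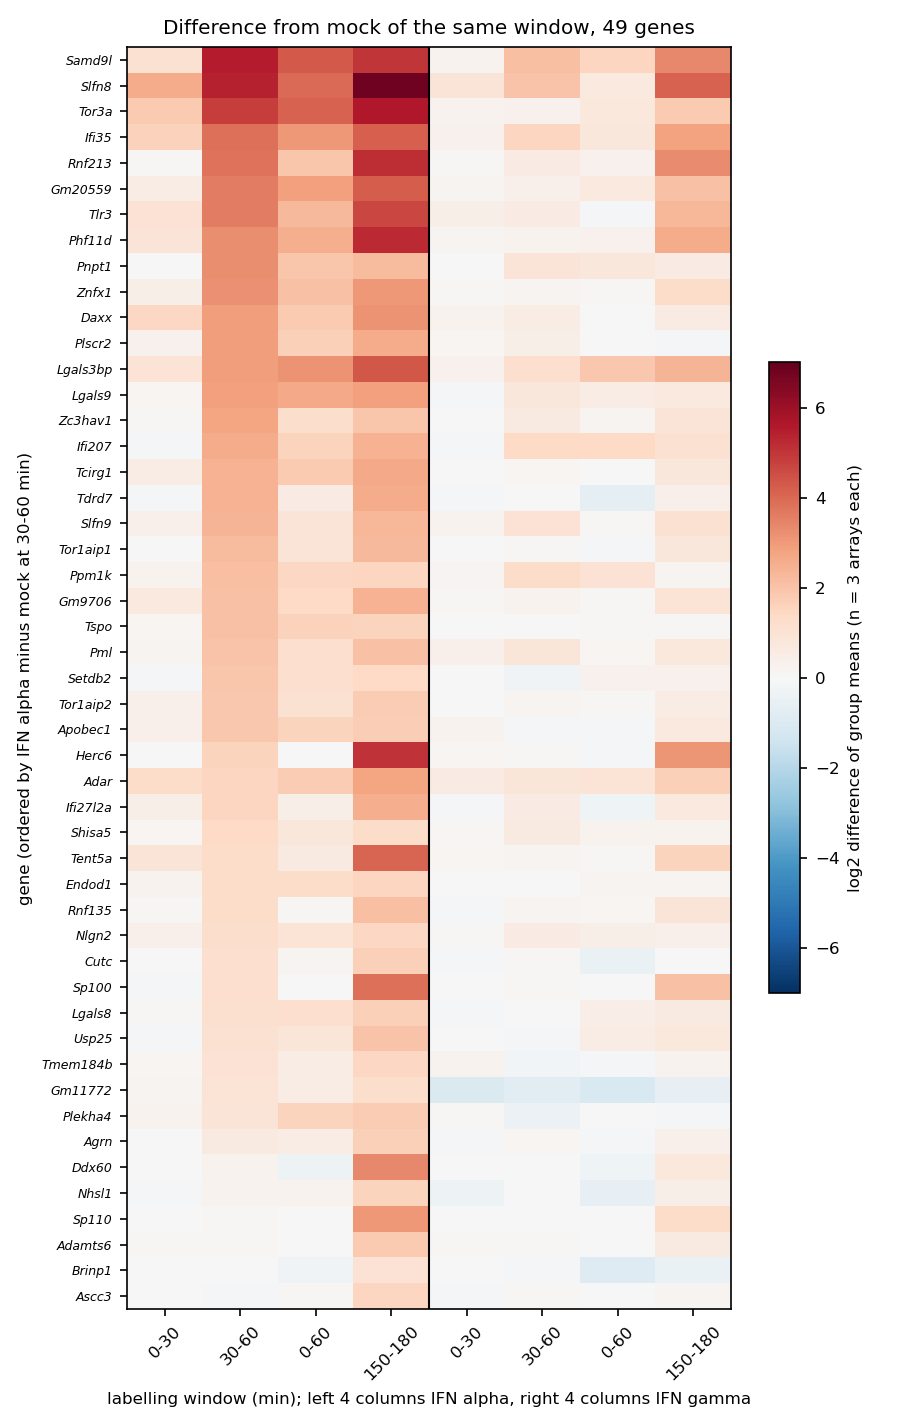
Log2 difference of group means from mock of the same window (colour scale from -7 to 7, n = 3 arrays in each group) for the 49 genes, with IFN alpha in the left 4 columns and IFN gamma in the right 4. Genes are ordered by the IFN alpha difference at 30-60 min, from Samd9l at 5.49 to Ascc3 at -0.06; the 150-180 min columns chose the genes and are no evidence for them.

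Promoters bear on these genes because the ISRE and GAS are short sequences near gene starts. RefSeq promoter windows on GRCm38.p6, from 250 bases before to 50 bases after a start, were found for 41 of the 49 genes. The ISRE core, which is GAAANNGAA followed by another A, searched on both strands, occurred in 9 of the 41 genes, or 22.0%, against 3.99% of the 27025 genes of the table. These were Ddx60, Ifi207, Lgals9, Plekha4, Shisa5, Slfn8, Slfn9, Tcirg1 and Tdrd7. The GAS letters TTCNNNGAA occurred in 5 of the 41 genes, or 12.2%, against 9.55% of all genes, namely in Adar, Ifi35, Plekha4, Shisa5 and Tor1aip2. Plekha4 and Shisa5 held both, overlapping in Shisa5, and 29 genes held neither. The 41 genes had 71 windows, and several windows give a gene more chances of a match, so these shares are descriptions. For GAAANNGAA alone, which every ISRE core contains, the share was 31.7% against 9.76%. Among the 24 antiviral family genes set aside, 18 had a window and 61.1% of them held the ISRE core; among genes selective for IFN gamma by the mirrored thresholds the share was 8.08%, and among genes raised by both 33.3%. A match is not a shown binding site, and a gene without one may have such a sequence outside the window.

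The 150 bases before the start are shown for 7 genes, 5′ to 3′ on the strand of the gene, with the ISRE core in capitals (read as its reverse complement where it lies on the other strand). Slfn8 and Slfn9 are neighbours on chromosome 11, and Samd9l and Gm20559 on chromosome 6, and the pairs show how alike such neighbours are. Ddx60, Ifi207 and Lgals9, like Slfn9, were chosen after their matches were seen, because their match lies within 60 bases of the start.
Slfn8: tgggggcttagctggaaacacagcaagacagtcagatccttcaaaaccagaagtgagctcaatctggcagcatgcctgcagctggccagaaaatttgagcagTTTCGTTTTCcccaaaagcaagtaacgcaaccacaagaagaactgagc
Slfn9: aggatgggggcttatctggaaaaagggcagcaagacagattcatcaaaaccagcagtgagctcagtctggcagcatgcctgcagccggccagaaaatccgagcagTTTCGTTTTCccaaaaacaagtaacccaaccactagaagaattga
Samd9l: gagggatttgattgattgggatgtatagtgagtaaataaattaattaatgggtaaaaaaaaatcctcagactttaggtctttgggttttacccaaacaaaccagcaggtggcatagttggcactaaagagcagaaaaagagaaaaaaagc
Gm20559: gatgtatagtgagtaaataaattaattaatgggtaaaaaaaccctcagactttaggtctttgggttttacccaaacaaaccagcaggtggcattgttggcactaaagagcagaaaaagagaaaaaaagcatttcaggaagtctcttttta
Ddx60: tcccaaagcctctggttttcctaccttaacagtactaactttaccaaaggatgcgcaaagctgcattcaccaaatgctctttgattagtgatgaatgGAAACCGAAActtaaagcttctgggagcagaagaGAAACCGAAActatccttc
Ifi207: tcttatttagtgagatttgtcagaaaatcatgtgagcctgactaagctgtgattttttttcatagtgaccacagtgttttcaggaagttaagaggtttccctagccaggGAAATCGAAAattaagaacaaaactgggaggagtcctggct
Lgals9: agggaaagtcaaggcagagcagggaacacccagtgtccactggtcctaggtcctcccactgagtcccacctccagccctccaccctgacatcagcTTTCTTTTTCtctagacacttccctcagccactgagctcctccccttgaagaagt
These stretches lie on GRCm38.p6 at chr11:83020811-83020960 (minus strand) for Slfn8, chr11:82991831-82991980 (minus) for Slfn9, chr6:3399572-3399721 (minus) for Samd9l, chr6:3346139-3346288 (minus) for Gm20559, chr8:61927937-61928086 (plus) for Ddx60, chr1:173741810-173741959 (minus) for Ifi207 and chr11:78984925-78985074 (minus) for Lgals9, each just upstream of an annotated start. Slfn8 and Slfn9 carried the same letters TTTCGTTTTC, ending 39 and 36 bases before their starts, and 130 of 143 aligned bases of the pair were identical. Ddx60 held the core in 2 copies with the same letters, at 53 to 44 and at 19 to 10 bases before its start. Samd9l and Gm20559, a long non-coding RNA in RefSeq, were identical at 127 of 129 aligned bases and held no ISRE core in their windows. Both alignments were local, with 2 gap bases in this pair and 8 in that of Slfn8 and Slfn9, which the counts of aligned bases leave out.

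**Figure D2:**
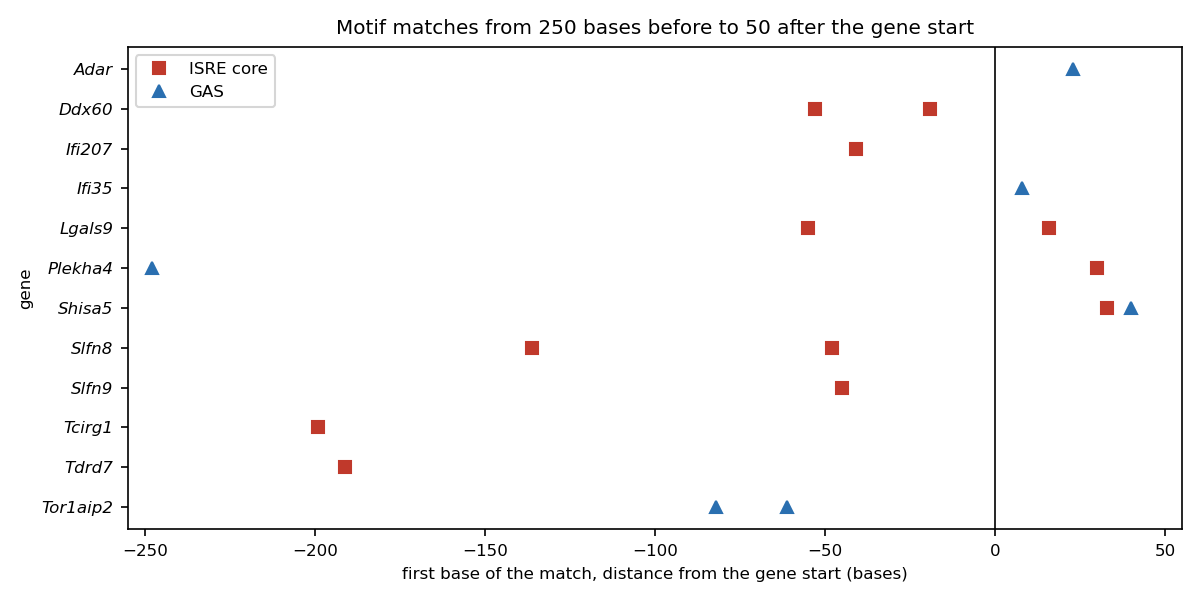
First base of each ISRE core match (squares) and GAS match (triangles) as distance in bases from the gene start (vertical line at 0), for the 12 genes with a match from 250 bases before to 50 after a start. Genes with several annotated starts have their windows laid over each other, and the farther Slfn8 match is counted from its other start. The matches of Slfn8 and Slfn9 nearest the start and those of Ddx60, Ifi207 and Lgals9 upstream of it lie within 60 bases of the start.

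From 30 to 60 min, a window that the thresholds did not use, IFN alpha raised 39 of the 49 genes above mock and lowered none. Of all 9549 genes tested, 2.4% were called higher and 0.189% lower in this comparison. The probe set of each gene was the one with the highest mean over all 36 arrays, those of this window included. The arrays average over all cells, so more responding cells and more new RNA per cell cannot be told apart. The median difference of the 49 genes was 1.91, against -0.04 over all genes. In a count added after the data were seen, 37 of the 45 genes that passed the filter without the late arrays were called; the other calls were Cutc and Sp100, and the same holds for IFN alpha against IFN gamma. In 42 of the 49 every IFN alpha array lay above every mock array, which held for 6.86% of all genes. The 5 largest differences belonged to Samd9l, Slfn8, Tor3a, Ifi35 and Rnf213, between 5.49 and 3.81. Calls of 2 of the 39 genes did not survive leaving out single arrays: that of Usp25 was lost without any of 5 of the 6 arrays (adjusted p up to 0.23), namely the 3 mock arrays and IFN alpha arrays 2 and 3, and that of Gm11772 without mock array 2 or IFN alpha array 3 (up to 0.18). The mean mock level was under 4, the filter value, in 17 of the 49 genes, so that their differences start from the array's background.

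**Figure D3:**
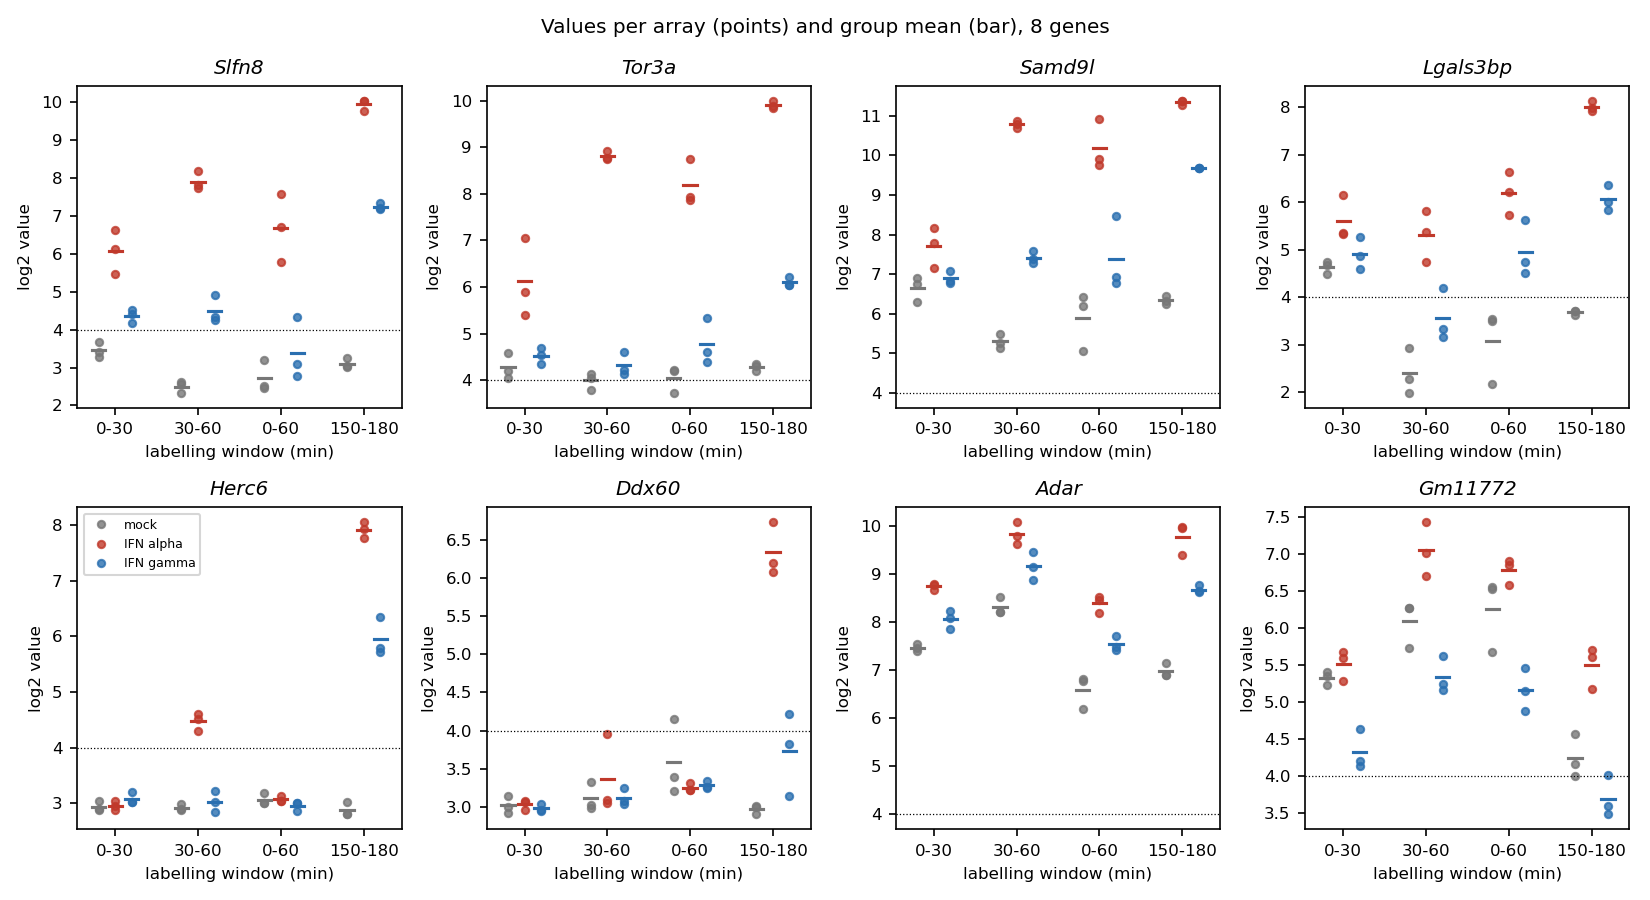
Log2 values of the 3 arrays of each group (points) and their mean (bar) for 8 of the genes across the 4 labelling windows, in mock (grey), IFN alpha (red) and IFN gamma (blue); the dotted line marks the filter value of 4, and each panel has its own scale. At 30-60 min Samd9l reads 10.70 to 10.88 with IFN alpha and 5.14 to 5.50 in mock, while Ddx60 separates only at 150-180 min, and IFN gamma values of Gm11772 lie below mock at 0-30 and 0-60 min.

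Among the proteins that act on RNA, 8 of 9 genes rose with IFN alpha from 30 to 60 min, the exception being Ascc3. In this comparison 2.4% of all genes were called higher, a share that goes with the count of each group of genes below. Samd9l encodes an antiviral protein that blocks translation. Its mock arrays read 5.50, 5.14 and 5.27, its IFN alpha arrays 10.80, 10.70 and 10.88, and its IFN gamma arrays 7.38, 7.28 and 7.57. The 3 treatments did not overlap, and the IFN alpha difference of 5.49 ± 0.32 (SE, n = 3 arrays per group, adjusted p = 1.9e-14) is a 44.9-fold change, against 2.11 ± 0.32 for IFN gamma. Slfn8 read 2.33, 2.61 and 2.56 in mock cells, 7.80, 7.72 and 8.17 with IFN alpha, and 4.92, 4.24 and 4.32 with IFN gamma. Its mock values lay at background, and the difference of 5.40 ± 0.34 separated all arrays. Slfn9, its neighbour, rose by 2.38 ± 0.24. Pnpt1, a mitochondrial exoribonuclease, read 5.65, 4.71 and 5.37 in mock cells and 8.82, 8.16 and 8.52 with IFN alpha, a difference of 3.25 ± 0.23. Zc3hav1, the zinc-finger antiviral protein that binds CpG-rich viral RNA, rose by 2.77 ± 0.15, with mock arrays from 7.34 to 7.72 and IFN alpha arrays from 10.26 to 10.45. Tdrd7, a tudor domain protein, rose by 2.43 ± 0.22, the cytidine deaminase gene Apobec1 by 1.86 ± 0.26 and Adar, which edits adenosine to inosine in double-stranded RNA, by 1.51 ± 0.17. Of the 4 genes grouped under nucleic acid sensing, Tlr3, Znfx1 and Ifi207 rose. Ddx60, which passed the filter only through the late arrays, did not pass the test. Tlr3, the endosomal receptor for double-stranded RNA, read 2.72, 3.19 and 3.38 in mock cells and 6.67, 6.59 and 6.76 with IFN alpha, a difference of 3.58 ± 0.33. Znfx1, a helicase that senses viral RNA, rose by 3.19 ± 0.30, and Ifi207, of the p200 family, by 2.62 ± 0.20.

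All 4 ubiquitin pathway genes were called higher with IFN alpha at 30 to 60 min, as were 2.4% of all genes. None of the 4 passed the test with IFN gamma. Rnf213, a very large ubiquitin ligase, read 6.51, 6.39 and 6.70 in mock cells and 10.13, 10.46 and 10.45 with IFN alpha. Its IFN gamma arrays read 7.05, 7.00 and 7.34, all above mock but at a difference of 0.59 ± 0.31 (adjusted p = 0.39; 0.025 in a fit with the array number as a block, which takes out differences between numbers), while the IFN alpha difference was 3.81 ± 0.31. Herc6 read 2.99, 2.90 and 2.88 in mock cells, 4.30, 4.60 and 4.51 with IFN alpha and 2.84, 3.22 and 3.03 with IFN gamma. Its change of 1.55 ± 0.15 was small beside that of 5.03 at 150 to 180 min. Other probe sets of Herc6 differed by 0.02, -0.01 and 0.05 at 30 to 60 min and that of Rnf213 by 0.24. The early rises of both genes thus rest on a single probe set each. Rnf135, a ligase for the RNA sensor RIG-I, rose by 1.26 ± 0.25 and the deubiquitinase gene Usp25 by 1.06 ± 0.28. The call of Usp25 was lost in 5 of the 6 fits that left out an array.

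Of the 6 genes of nuclear bodies and chromatin 5 rose with IFN alpha at 30 to 60 min, and Sp110 did not pass the test. Phf11d had mock arrays at 3.43, 3.42 and 3.41 and IFN alpha arrays at 6.76, 6.44 and 6.90, a difference of 3.28 ± 0.34. Daxx, a histone chaperone of PML bodies, read 6.11, 6.16 and 6.38 against 8.93, 9.22 and 9.35, a difference of 2.95 ± 0.25. Pml itself, which builds these bodies, rose by 1.99 ± 0.24, and Setdb2, of a histone methyltransferase family, by 1.91 ± 0.23. Sp100, another PML body protein, read 2.67, 2.57 and 2.69 in mock cells and 3.93, 3.56 and 3.93 with IFN alpha. Its difference of 1.17 ± 0.13 separated the arrays although all of them lay under the filter value of 4, which Sp100 passed only through the late arrays that chose it; without Sp100 and Sp110 the count is 4 of 4.

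The 3 genes of the torsin system rose together. Tor3a, an interferon-inducible torsin, read 4.06, 4.14 and 3.80 in mock cells, 8.77, 8.75 and 8.92 with IFN alpha and 4.60, 4.14 and 4.23 with IFN gamma. Its difference was 4.81 ± 0.28 with IFN alpha (adjusted p = 1e-14) and 0.33 ± 0.28 with IFN gamma (adjusted p = 0.74), so that it had the largest gap between the interferons of the 49 genes, 4.49 ± 0.28. Tor1aip1 and Tor1aip2, neighbours that encode torsin activators of the nuclear envelope and the endoplasmic reticulum, rose by 2.21 ± 0.17 and 1.91 ± 0.16. All 3 genes for galectins, which bind sugars, and their binding protein also rose: Lgals3bp by 2.92 ± 0.34, Lgals9 by 2.87 ± 0.28 and Lgals8 by 1.10 ± 0.16.

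Ifi35, a leucine zipper protein, led the other genes long known from interferon responses. It read 6.68, 6.20 and 6.53 in mock cells, 10.55, 10.02 and 10.41 with IFN alpha and 8.11, 7.70 and 8.06 with IFN gamma, with differences of 3.86 ± 0.31 and 1.49 ± 0.31. Plscr2 rose by 2.93 ± 0.37, Ifi27l2a by 1.51 ± 0.29, the membrane protein gene Shisa5 by 1.37 ± 0.19 and Tent5a, a poly(A) polymerase, by 1.31 ± 0.27. Of the 12 membrane, mitochondrial and matrix genes 5 rose: Tcirg1, a subunit of the vacuolar proton pump, by 2.44 ± 0.26, the mitochondrial phosphatase gene Ppm1k by 2.12 ± 0.29, Tspo by 2.04 ± 0.30, Endod1 by 1.29 ± 0.23 and Cutc by 1.18 ± 0.20. Cutc too lay under the filter value in both groups and passed it only through the late arrays. The 3 transcripts with predicted-gene names rose by 3.59 ± 0.29 (Gm20559), 2.05 ± 0.23 (Gm9706) and 0.96 ± 0.24 (Gm11772).

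IFN gamma raised 12 of the 49 genes above mock in the same window, where 3.82% of all genes were called higher and 2.06% lower, and lowered none. All IFN gamma arrays lay above all mock arrays in 18 of the 49, which held for 8.25% of all genes. The median difference was 0.19, against -0.05 over all genes. The 5 largest belonged to Samd9l at 2.11 ± 0.32, Slfn8 at 1.99 ± 0.34, Ifi35 at 1.49 ± 0.31, Ifi207 at 1.38 ± 0.20 and Ppm1k at 1.27 ± 0.29. Lgals3bp, Slfn9, Pnpt1, Adar, Pml, Zc3hav1 and Shisa5 made up the rest, between 1.17 and 0.61. The lowest 5 were Gm11772 at -0.75 ± 0.24 (adjusted p = 0.06), Plekha4 at -0.41 ± 0.39, Setdb2 at -0.26 ± 0.23, Tmem184b at -0.21 ± 0.29 and Usp25 at -0.16 ± 0.28, none of them past the test. Fitted on the arrays of this window alone, 7 of the 12 calls were left, and the calls of Lgals3bp, Pml, Pnpt1, Shisa5, Slfn9 and Zc3hav1 were each lost without at least 2 of the 6 arrays compared, at adjusted p up to 0.25. With the array number as a block Gm11772 was called lower (adjusted p = 0.0088) and Rnf213, Lgals9 and Ifi27l2a higher.

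Compared directly, IFN alpha exceeded IFN gamma in 39 of the 49 genes at 30 to 60 min, where 2.97% of all genes were called in that direction and 2.72% in the other, and IFN gamma exceeded IFN alpha in none. The arrays of both did not overlap in 42 genes, with IFN alpha above, as in 8.94% of all genes. The median gap was 1.44, against 0.02 over all genes. This comparison and the 2 comparisons with mock share arrays, so their calls are not independent. Ppm1k read 3.65, 3.04 and 3.65 in mock cells, 5.66, 5.38 and 5.66 with IFN alpha and 4.78, 4.68 and 4.67 with IFN gamma. Both interferons raised it, and the gap of 0.85 ± 0.29 did not pass the test (adjusted p = 0.086). Ifi27l2a had a gap of 0.93 ± 0.29 (adjusted p = 0.053; 0.001 with the array number as a block). Tmem184b and Plekha4 exceeded IFN gamma by 1.20 ± 0.29 and 1.28 ± 0.39 without a called difference from mock. Plekha4, a PH domain protein, lost its call without any of the 6 arrays compared (adjusted p up to 0.21). Adar lost it without IFN alpha array 1 or IFN gamma array 2 (up to 0.12), Shisa5 without IFN alpha array 1 or 3 or IFN gamma array 2 (up to 0.098), Tent5a without IFN alpha array 1 (0.07) and Tmem184b without IFN alpha array 3 (0.05).

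**Figure D4:**
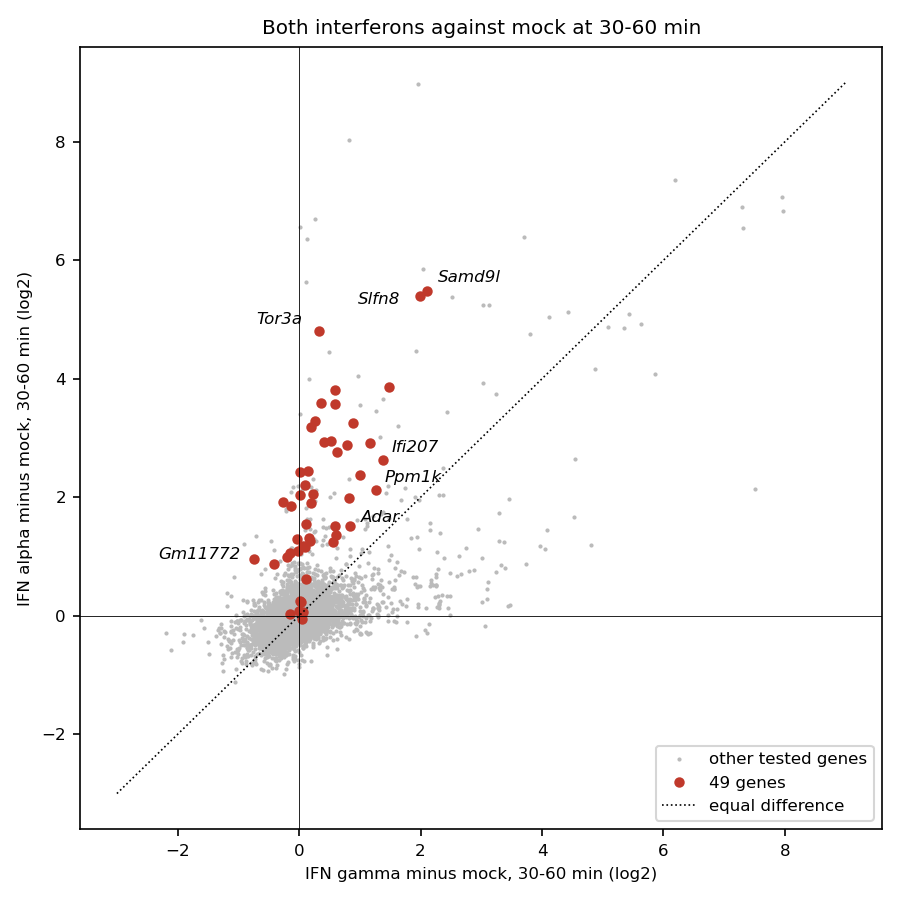
Log2 difference from mock at 30-60 min with IFN gamma (x axis) and IFN alpha (y axis) for the 49 genes (red) and the other tested genes (grey); the dotted line marks equal differences, and both axes share the mock arrays. Most of the 49 lie above the line, with Tor3a at 4.81 and 0.33 and Samd9l at 5.49 and 2.11, and 6 of the 10 genes not called with IFN alpha lie between -0.06 and 0.25 on the y axis.

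Of the 49 genes 10 were not called with IFN alpha at 30 to 60 min, and 6 of these, Ddx60, Nhsl1, Sp110, Adamts6, Brinp1 and Ascc3, lay between -0.06 and 0.25 although they had met the late threshold. Ddx60, a helicase that helps RIG-I, read 3.02, 3.33 and 2.98 in mock cells and 3.09, 3.95 and 3.05 with IFN alpha at 30 to 60 min. At 150 to 180 min the same groups read 3.02, 3.01 and 2.90 against 6.20, 6.07 and 6.73. The early groups overlapped and the late ones were far apart. Sp110, a nuclear body protein, was at background in every early group, at 2.35, 2.58 and 2.37 with IFN alpha, and at 5.64, 5.25 and 5.20 late. Ascc3, a helicase of a complex that rescues stalled ribosomes, read 7.90, 7.51 and 7.47 in mock cells and 7.69, 7.52 and 7.48 with IFN alpha early, and 7.78, 7.77 and 7.72 against 9.42, 9.31 and 9.06 late. Unlike Ddx60 and Sp110 it read above the filter value in all groups. Its other probe set differed by 1.08 from mock (adjusted p = 0.17) and by 1.27 from IFN gamma (adjusted p = 0.034) at 30 to 60 min, so the probe sets of Ascc3 disagree. Adamts6, an extracellular protease, and Brinp1 were likewise expressed in mock cells and differed by 0.06 ± 0.20 and 0.03 ± 0.23 early, against 1.85 and 1.01 late. Nhsl1 stood at 0.23 ± 0.36 (adjusted p = 0.99). The other 4 were Nlgn2 at 1.25 ± 0.51 (0.34), Tmem184b at 0.99 ± 0.29 (0.072), Plekha4 at 0.88 ± 0.39 (0.44) and the matrix protein gene Agrn at 0.61 ± 0.19 (0.11). With the array number as a block, Agrn, Nlgn2, Plekha4 and Tmem184b were called, at adjusted p of 0.0092, 0.012, 0.00061 and 0.0013.

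The level under IFN alpha itself was higher late in most genes. In 40 of the 49 every IFN alpha array at 150 to 180 min lay above every IFN alpha array at 30 to 60 min, as in 56.4% of all genes, in 8 the arrays overlapped, and in Gm11772 they lay below. The difference from mock at 30 to 60 min was less than 50% of the late one in 11 genes, among them Herc6 at 30.7%, and at least as large in 14, among them Samd9l, Pnpt1 and Zc3hav1. Since the late arrays chose the genes, these counts are descriptions only. The IFN gamma difference, also part of the choice, was larger late in 39 genes and smaller in 10. This count too is a description only, and no share over all genes stands beside it. Rnf213 went from 0.59 to 3.32, Herc6 from 0.11 to 3.07 and Phf11d from 0.26 to 2.61. Ppm1k went from 1.27 to 0.20, Pnpt1 from 0.89 to 0.56 and Shisa5 from 0.61 to 0.22.

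In the first 30 min IFN alpha raised 5 of the 49 genes, where 0.377% of all genes were called higher, and lowered none. The median difference was 0.18. Slfn8 read 3.27, 3.67 and 3.41 in mock cells, 6.63, 5.46 and 6.12 with IFN alpha and 4.41, 4.17 and 4.52 with IFN gamma, a difference from mock of 2.62 ± 0.34 with IFN alpha (adjusted p = 6e-06). Tor3a read 4.59, 4.20 and 4.05 against 7.06, 5.41 and 5.90, a difference of 1.84 ± 0.28. In both genes the IFN alpha arrays spread widely but stayed above all others. Ifi35 differed by 1.59 ± 0.31, Daxx by 1.44 ± 0.25 and Adar by 1.28 ± 0.17. The Adar arrays lay close together, at 7.45, 7.55 and 7.39 in mock cells and 8.67, 8.76 and 8.78 with IFN alpha. The call of Ifi35 was lost without mock array 3 or IFN alpha array 1 (adjusted p up to 0.16). Samd9l, first at 30 to 60 min, differed by 1.05 ± 0.32 (adjusted p = 0.59, and 0.015 with the array number as a block). Tor1aip2 differed by 0.36 and was called only with that block (adjusted p = 0.038). In 15 of the 49 genes all IFN alpha arrays lay above all mock arrays, which held for 4.24% of all genes.

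With IFN gamma 1 of the 49 was called in the first 30 min, and it was lower; with the array number as a block Adar was also called, higher by 0.60 (adjusted p = 0.0091). Gm11772, a predicted gene, read 5.41, 5.23 and 5.35 in mock cells, 5.60, 5.28 and 5.68 with IFN alpha and 4.64, 4.20 and 4.13 with IFN gamma. The IFN gamma arrays lay below all others, at a difference of -1.01 ± 0.24 (adjusted p = 0.03), and 0.0419% of all genes were called lower and 0.754% higher. In 6 of the 49 genes all IFN gamma arrays lay above all mock arrays, as in 6.08% of all genes. The Gm11772 call was lost without any 1 of the mock arrays or without IFN gamma array 2 or 3 (adjusted p up to 0.22). Against IFN gamma, IFN alpha was higher in 5 genes, where 0.189% of all genes were called higher and 0.524% lower: Slfn8 by 1.70 ± 0.34, Tor3a by 1.60 ± 0.28, Ifi35 by 1.30 ± 0.31, Gm11772 by 1.20 ± 0.24 and Daxx by 1.19 ± 0.25. All arrays lay above those of IFN gamma in 15 genes, as in 3.57% of all genes. The count of 5 fell to 2 without IFN alpha array 1 or IFN gamma array 3 and to 3 without IFN alpha array 3 or IFN gamma array 2. Leaving out single arrays cost Daxx and Ifi35 their calls in 4 of 6 fits each, Gm11772 in 2 and Slfn8 in 1, at adjusted p up to 0.51, while Tor3a kept its call in each. The block added Adar (adjusted p = 0.0021) and Tor1aip2 (0.018).

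Labelling over the whole first hour at 200 µM 4sU gave calls for 30 of the 49 genes with IFN alpha, all higher, where 1.91% of all genes were called higher and 0.0733% lower. All IFN alpha arrays exceeded all mock arrays in 31 genes, as in 4.7% of all genes. The median difference was 1.19. Samd9l at 4.30 ± 0.32, Tor3a at 4.13 ± 0.28, Slfn8 at 3.96 ± 0.34, Lgals3bp at 3.13 ± 0.34 and Ifi35 at 3.02 ± 0.31 led. These arrays spread more: Phf11d read 3.37, 3.44 and 3.42 in mock cells but 6.49, 7.00 and 4.30 with IFN alpha. Of the 39 genes called at 30 to 60 min 29 were called here too, and Plekha4 was called here alone, at 1.54 ± 0.39 (adjusted p = 0.026, lost without mock array 3 or IFN alpha array 1 or 2, up to 0.26). Herc6 and Sp100, raised at 30 to 60 min, stood at 0.01 ± 0.15 and 0.01 ± 0.13. With the spread taken from this window alone 12 of the 30 calls were left.

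IFN gamma raised 6 of the 49 over the hour, where 3.83% of all genes were called higher, and lowered 2, where 2.9% were called lower. In 8 genes all IFN gamma arrays lay above mock, as in 6.05% of all genes. Higher were Lgals3bp at 1.88 ± 0.34, Samd9l, whose change was 2.84-fold, Ifi207 at 1.38 ± 0.20, Ppm1k at 1.00 ± 0.29, Adar at 0.94 ± 0.17 and Pnpt1 at 0.78 ± 0.23. Lower were Gm11772 at -1.09 ± 0.24 and Brinp1 at -0.93 ± 0.23. Gm11772 read 5.68, 6.53 and 6.56 in mock cells and 5.15, 4.88 and 5.46 with IFN gamma, so that it lay below mock here as in the first 30 min. The count of 8 was 1 on the arrays of this window alone, 14 with the array number as a block and 5 without IFN gamma array 2. Single arrays cost Pnpt1 and Ppm1k their calls in 3 of 6 fits each, Samd9l in 1 (without IFN gamma array 2) and Brinp1 in 1 (without IFN gamma array 3). IFN alpha exceeded IFN gamma in 29 genes, where 2.36% of all genes were called higher and 1.65% lower, and in 7 on the arrays of this window alone. All arrays of IFN alpha lay above those of IFN gamma in 32 genes, as in 10.6% of all genes. Ifi207, with 5.73, 5.45 and 5.07 under IFN alpha and 5.06, 5.39 and 5.26 under IFN gamma, was raised by both and the 2 groups overlapped.

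The IFN alpha response grew between the first 30 min and the next 30 min. Tested as a difference of differences, the gain was positive and called in 32 of the 49 genes, where 1.27% of all genes were called higher. The median gain was 1.53, against 0.00 over all genes. Of the 45 genes that passed the filter without the late arrays, 30 were called. The other calls were Cutc and Sp100, which passed it only through the arrays that chose them. Samd9l gained 4.44 ± 0.46, Rnf213 3.72 ± 0.43, Pnpt1 3.29 ± 0.33, Gm20559 3.06 ± 0.41 and Tor3a 2.97 ± 0.39. Adar, raised by 1.28 and then by 1.51, had a gain of 0.24 ± 0.24 that did not pass the test. Leaving out single arrays left 26 to 33 gains called, and 8 of the 32 calls were lost in at least 1 such fit, that of Apobec1 in 10 of 12 and that of Lgals3bp in 9 of 12.

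A gain can come from a rising IFN alpha level or from a falling mock level, and both occurred. In mock cells 23 of the 49 genes were called lower at 30 to 60 min than in the first 30 min and 3 higher, where 51.8% of all tested genes were called lower and 9.05% higher. The median fall of 0.52 was that of all genes, -0.52. In 31 of the 49 genes every IFN alpha array at 30 to 60 min lay above every one of the first 30 min, as in 12.8% of all genes, and in 4 below, as in 56.4%. This rise was seen in 24 of the 32 genes with a called gain and not in Apobec1, Cutc, Lgals3bp, Lgals9, Setdb2, Shisa5, Tcirg1 and Tspo. Ifi207 showed a rising level: its IFN alpha arrays went from 3.41, 3.41 and 3.46 to 6.52, 5.79 and 6.48 while mock stayed between 3.41 and 3.77. Lgals3bp showed the other form, with IFN alpha arrays at 6.16, 5.34 and 5.33 and then at 4.75, 5.38 and 5.81 while mock fell from 4.67, 4.74 and 4.48 to 1.98, 2.27 and 2.93. How far the general fall between these windows touches the gains was not tested. With IFN gamma 2 gains were called, where 1.27% of all genes were called higher: Samd9l at 1.86 ± 0.46 and Ifi207 at 1.54 ± 0.29. That of Samd9l was lost in 7 of 12 fits without 1 array (adjusted p up to 0.089), and the count was 5 with the array number as a block.

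**Figure D5:**
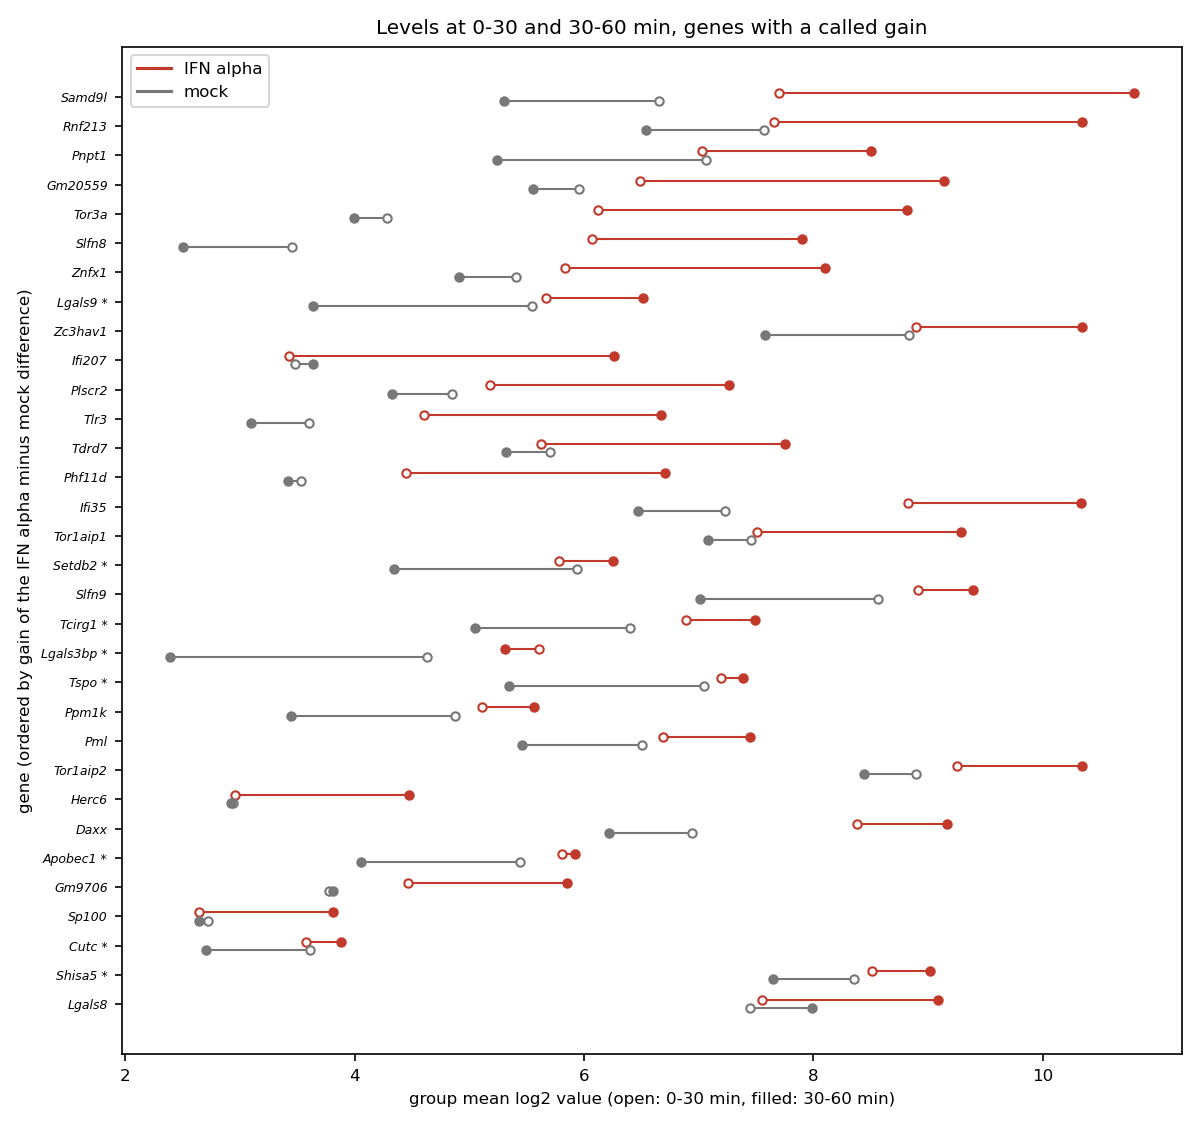
Group mean log2 value (x axis, n = 3 arrays) at 0-30 min (open circles) and 30-60 min (filled circles) in IFN alpha (red) and mock (grey) for the 32 genes with a called gain, ordered by its size; an asterisk marks the 8 genes whose IFN alpha arrays at 30-60 min did not all lie above those at 0-30 min. Mock falls in most of these genes, from 4.63 to 2.39 in Lgals3bp, and moves little in Herc6.

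The pathway that carries the signal was followed in 18 tested genes for receptors, kinases, transcription factors and inhibitors, none of them among the 49. At 30 to 60 min 7 of the 18 were called higher with IFN alpha and 6 with IFN gamma, and none lower. Of all genes 2.4% and 3.82% were called higher with IFN alpha and IFN gamma, and 0.189% and 2.06% lower. The receptor genes Ifnar1 and Ifngr1 differed from mock by 0.16 ± 0.28 and -0.02 ± 0.24 with IFN alpha, and Tyk2 by -0.10 ± 0.31. Ifnar2 stood at 0.60 ± 0.20 with IFN alpha (adjusted p = 0.14) and at 1.34 ± 0.20 with IFN gamma (adjusted p = 8.3e-06). It was higher with IFN gamma in the direct test (adjusted p = 0.016). Ifngr2 stood at -0.29 ± 0.49 with IFN alpha and at -1.30 ± 0.49 with IFN gamma, neither past the test. Stat2 and Irf9, parts of the ISRE-binding complex, rose with both interferons, Stat2 by 3.93 ± 0.42 and 3.04 ± 0.42 with IFN alpha and IFN gamma, and Irf9 by 3.74 ± 0.17 and 3.24 ± 0.17. Irf1, the factor of the second wave, rose by 4.09 ± 0.19 and 5.86 ± 0.19 and the inhibitor Socs1 by 1.26 ± 0.34 and 3.30 ± 0.34, both higher with IFN gamma in the direct test (adjusted p = 2.4e-08 and 6.4e-05). Irf7, with 2.31 ± 0.28 and 0.23 ± 0.28, and Usp18, an inhibitor at the IFN alpha receptor, with 6.70 ± 0.50 and 0.26 ± 0.50, were higher with IFN alpha in the direct test (adjusted p = 2.2e-06 and 3.1e-11) and were among the genes set aside. Over the 24 genes set aside the median difference with IFN alpha was 1.12 in the first 30 min and 3.48 at 30 to 60 min. Of these 24 genes 10 and 20 were called higher, against 0.377% and 2.4% of all genes. Over the 49 genes the medians were 0.18 and 1.91.

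Some of the 49 rest on probe sets that may read more than 1 gene. Those of Gm20559, Gm9706, Tspo and Sp110 carry the array maker's suffix for probes that can cross-hybridise. Those of Tor3a, Ifi35, Tlr3, Tor1aip1, Tor1aip2 and Plekha4 carry the suffix for probes shared by several transcripts. Gm20559 neighbours Samd9l, and their promoters were nearly identical. Their transcripts and probes were not compared, so whether their signals are separable was not tested. Another probe set of Gm20559, without this suffix, stood 4.46 above mock with IFN alpha at 30 to 60 min (adjusted p = 4.1e-11 in a limma fit over all probe sets past the filter). Gm9706, a pseudogene in RefSeq, shares another probe set with Isg15, which stood at 5.42 above mock with IFN alpha at 30 to 60 min. Of the 39 genes called at that time 20 had another probe set past the filter, and in 14 at least 1 of these was called too. In Endod1, Herc6, Ppm1k, Rnf213, Slfn9 and Sp100 none was. The other 3 probe sets of Herc6 differed by 0.02, -0.01 and 0.05 at 30 to 60 min and by 3.28, 5.15 and 2.40 at 150 to 180 min, so its early rise rests on 1 probe set. Rnf213's other probe set differed by 0.24 early and by -1.29 late. Slfn8 and Slfn9, Herc6 and Ppm1k, Tor1aip1 and Tor1aip2, and Gm20559 and Samd9l are neighbours in the gene order, and Agrn lies next to Isg15.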

How the data were processed

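The deposited table holds log2 values per probe set, which the authors made with GCRMA, per the submitters' processing notes, whose version is not given in the sources used here, nor is a genome build. GCRMA subtracts background and normalises between arrays, so values near the lower end, from 1.34 up, carry little order. Of 45101 probe sets, 34945 had 1 gene symbol, 932 several and 9160 none besides the controls; each of the 18193 genes was represented by 1 probe set. No values were pooled or imputed.

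Genes with a value over 4 on at least 3 arrays were tested with limma 3.58.1 (R 4.3.3), lmFit and eBayes with a trend, on 12 group means over 36 arrays with 24 residual degrees of freedom. The p-values were adjusted by the Benjamini-Hochberg method over the 9549 genes of each of 12 comparisons. On simulated data for IFN alpha against mock at 30 to 60 min over 9549 genes, 78% of changes of log2 1 and 99% of log2 2 were recovered, and 9 of 186 calls were false. The simulated arrays were independent of each other and had the same spread per gene in all windows. In the real data arrays with the same number deviated together, so these rates may not hold there. Precision is limited by the number of arrays, 3 a group.

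Arrays with the same number deviated together from their group means. The r was above 0.1 in 9 of 9 pairs at 0 to 30 (0.205 to 0.651), 30 to 60 (0.317 to 0.695) and 0 to 60 min (0.179 to 0.669). At 150 to 180 min this held for 7 of 9 pairs. The number therefore pairs the arrays in the first 3 windows. The main fit did not use this pairing. Counts, standard errors and adjusted p-values come from the main fit unless another fit is named.

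The genes and gene lists were chosen with earlier results of these data known, and the role groups were made after the genes were known. Genes named are the 10 with the largest IFN alpha difference at 30 to 60 min, those called at 0 to 30 min, the 5 largest and 5 smallest for IFN gamma, up to 3 of each role list, the 3 nearest each threshold and those not called; other genes were named for their group and after their values were seen. Alternatives were another probe set per gene, quantile normalisation, an offset of 16, filters, array weights, single windows, the block and left-out arrays.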

Additional observations from a re-analysis of the deposited data

Results flagged for a closer look

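In 32 of the 49 genes the IFN alpha response was larger at 30 to 60 min than in the first 30 min. The difference itself was tested. The IFN gamma response was larger in 2, Samd9l and Ifi207. Of all tested genes 1.27% were called higher in each of these tests. Among the 45 genes that passed the filter without the late arrays, 30 IFN alpha gains were called. In 8 of the 32 the IFN alpha arrays did not all lie above those of the first 30 min. Leaving out single arrays cost 8 of the 32 their calls. In addition 20 probe sets that name no gene or several genes, and so entered no comparison, met the same thresholds at 150 to 180 min. They include the probe set shared by Isg15 and Gm9706, with a difference of IFN alpha from mock of 5.67 and from IFN gamma of 2.45.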

How the results depend on the processing

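Under the alternatives most values for single genes kept their direction and call: 10554 did, 265 lost a call, 146 gained one and 1 turned. The last was Herc6 in IFN alpha against IFN gamma at 30 to 60 min, at -0.0362 when the median of its probe sets was taken. In this comparison its other probe sets differed by -0.094, 0.015 and 0.007, and the one used by 1.44. The cause was not tested. The numbers of the 49 genes called that moved by over 1.5 times were these. IFN gamma against mock at 0 to 30 min, 1 gene, gave 0 with no filter, 0 with the offset of 16, 2 on that window alone, 3 with array weights and 2 with the replicate block. IFN gamma against mock at 30 to 60 min, 12 genes, gave 7 on that window alone and 7 at a minimum change of 2-fold. In the first hour IFN alpha against mock, 30 genes, gave 12 on that window alone, IFN alpha against IFN gamma, 29 genes, gave 7, and IFN gamma against mock, 8 genes, gave 1, with 14 in the replicate block and 4 at 2-fold. The IFN gamma gain, 2 genes, gave 1 with no filter, 1 with a filter at 6, 1 with the offset, 8 with array weights and 5 with the block. Mock between windows, 26 genes, gave 16 at 2-fold. With the replicate block 7, 43 and 32 genes were called with IFN alpha at 0 to 30, 30 to 60 and 0 to 60 min. In its comparison with IFN gamma 7, 41 and 36 were called. The IFN alpha gain was called in 34 genes, with Endod1 (adjusted p = 0.013) and Ifi27l2a (0.023) added. The block removed no call.

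Leaving out 1 array gave 4 to 5, 37 to 41 and 27 to 33 genes for IFN alpha against mock at 0 to 30, 30 to 60 and 0 to 60 min, 0 to 1, 8 to 13 and 5 to 11 for IFN gamma, 2 to 6, 35 to 41 and 24 to 31 between the interferons, 26 to 33 and 1 to 2 for the IFN alpha and IFN gamma gains and 23 to 27 for mock. With thresholds of 1.5 the rule gave 24 genes, of which IFN alpha against mock called 3, 21 and 16, IFN gamma against mock 0, 4 and 3, the interferons compared 3, 21 and 17, the gains 19 and 1, and mock 10. The rule found 45 genes with the median probe set, and 41 of them were among the 49. Adar, Agrn, Endod1, Nhsl1, Nlgn2, Ppm1k, Rnf213 and Sp110 were lost there. With the offset it found 39, of which 38 were among the 49. It found 52 after quantile normalisation, with all 49 kept, 48 with a common median and 47 to 52 without 1 array. Signal over background limits the 17 genes whose mock mean was under 4 at 30 to 60 min.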
